A study of Mus musculus with 2 samples.

Results

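The regions described here are 8535 ATAC-seq peaks of mouse CD8+ T cells that lie between genes, near a gene, and were found in the control library and not in the treatment library. They were chosen by 2 measured properties: the interval of a control peak shared no base with any treatment interval, and its summit lay outside every protein-coding gene span, more than 1 kb and at most 100 kb from the nearest one. They are 8535 of 83295 control peaks on chromosomes 1 to 19, and 8535 of 25759 control peaks in that distance window (33.1%, against 29.3% of control peaks anywhere), the other 17224 being shared with treatment. The treatment library had 63351 peaks on these chromosomes. Because absence from treatment chose the members, their absence is a description and no result, and no test was made.

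ATAC-seq uses a transposase to place sequencing adapters in open chromatin, and a peak marks a stretch of DNA that was cut more often than its surroundings. The study holds 1 library of CD8+ T cells titled control and 1 titled treatment, so no value below has been set against the spread between replicates. Another label field disagrees in part with the titles: it gives "Treatment" for the control-titled library, and "Combined treatment" for the other. The labels name no agent, dose, time, strain, age or genotype, and the series title adds only the name Peml-1, so the groups are called here by their titles. At the loci of the T cell genes Cd3e, Cd8a and Cd8b1, with 10 kb on each side, control had 7, 9 and 9 peaks and treatment 8, 7 and 11. The B cell gene Ms4a1 had 0 and 1 and the macrophage gene Csf1r 3 and 1, while Cd14 had 2 and 2 and the B cell gene Cd79a 6 and 6. Loci of markers of other cell types thus held peaks too. These counts take in the flanks, so a peak need not lie in the named gene. In bulk cells a missing peak in some cells and a weaker one in all cells cannot be told apart.

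Much accessible DNA away from promoters is enhancer DNA, bound by transcription factors that act on genes at a distance. In CD8+ T cells such elements change as naive cells become effector, memory or exhausted cells, and ETS and RUNX factors bind many of them throughout. An enhancer often skips the nearest gene, so the nearest gene below is a position and not a target. A few members lie at the start of a long non-coding RNA (lncRNA) gene, and there the sequence can be shown.

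The summits of 72 members (0.844%, 95% Wilson interval 0.670 to 1.06%) lay in the promoter window of an lncRNA gene, which runs from 250 bases before to 50 bases after its start. Of the shared control peaks of the same place, 275 did (1.60%, 1.42 to 1.79%). A set of 5 such windows is shown, chosen from chromosomes other than 18. Among the windows there with a match to 1 of 7 short cores of T cell factors, it holds the highest fold enrichments. The sequences are from RefSeq, build GRCm38.p6, the assembly of mm10, and run 5′ to 3′ along the strand of the lncRNA, with every core match in capitals on either strand. The cores searched were TGANTCA (AP-1), TGTGGTT (RUNX), CAGGAAG (ETS), CTTTGAT (TCF), GGTGTGA (T-box), CAGCTG (E protein) and TGGAAAA (NFAT).
Gm41508, chr16:95921158-95921457, plus strand: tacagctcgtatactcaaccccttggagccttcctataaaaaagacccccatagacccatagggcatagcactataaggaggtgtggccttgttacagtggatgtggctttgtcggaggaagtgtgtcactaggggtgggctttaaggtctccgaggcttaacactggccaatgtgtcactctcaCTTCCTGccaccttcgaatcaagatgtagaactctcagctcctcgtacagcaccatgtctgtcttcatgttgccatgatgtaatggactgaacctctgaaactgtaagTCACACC
Gm39852, chr2:74606183-74606482, minus strand: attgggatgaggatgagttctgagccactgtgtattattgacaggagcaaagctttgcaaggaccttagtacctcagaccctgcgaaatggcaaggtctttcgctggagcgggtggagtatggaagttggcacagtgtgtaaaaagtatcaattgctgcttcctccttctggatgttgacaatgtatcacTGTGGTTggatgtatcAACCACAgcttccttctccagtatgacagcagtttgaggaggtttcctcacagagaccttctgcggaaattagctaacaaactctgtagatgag
Gm44507, chr7:98415566-98415865, minus strand: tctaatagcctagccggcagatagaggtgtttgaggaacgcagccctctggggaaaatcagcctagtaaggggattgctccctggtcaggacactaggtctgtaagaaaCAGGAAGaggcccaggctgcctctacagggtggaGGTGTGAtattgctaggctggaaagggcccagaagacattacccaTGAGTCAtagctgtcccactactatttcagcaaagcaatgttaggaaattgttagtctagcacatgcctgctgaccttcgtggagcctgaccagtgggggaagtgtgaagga
Gm42217, chr3:40480656-40480955, plus strand: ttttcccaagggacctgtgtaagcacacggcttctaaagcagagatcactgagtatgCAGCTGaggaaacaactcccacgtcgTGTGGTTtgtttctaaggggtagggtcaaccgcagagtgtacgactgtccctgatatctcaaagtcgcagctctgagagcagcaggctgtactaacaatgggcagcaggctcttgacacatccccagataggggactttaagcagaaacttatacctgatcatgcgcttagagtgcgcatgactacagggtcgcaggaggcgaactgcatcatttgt
Gm30184, chr3:40453750-40454049, minus strand: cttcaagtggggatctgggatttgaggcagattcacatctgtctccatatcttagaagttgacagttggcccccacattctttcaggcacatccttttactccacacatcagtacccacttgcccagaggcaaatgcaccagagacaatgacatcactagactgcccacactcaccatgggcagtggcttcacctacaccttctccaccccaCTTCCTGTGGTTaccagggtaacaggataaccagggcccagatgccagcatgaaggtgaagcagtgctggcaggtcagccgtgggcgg

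Fold enrichment is the authors' value for each peak, the pile-up at its summit over the local background. Summit coverage is the number of reads piled up there, recovered from the fold and the p-value. The member at Gm41508 had a fold enrichment of 20.97 and a summit coverage of 399 reads, and its window holds an ETS and a T-box core. The member at Gm39852 had a fold enrichment of 18.7 and 283 reads, with a pair of RUNX cores on opposite strands. The member at Gm44507, with 14.1-fold and 212 reads, has an ETS, a T-box and an AP-1 core. Gm42217 and Gm30184 lie in the same stretch before Intu, where 8 of 9 control peaks had no treatment peak. Gm42217 holds an E protein and a RUNX core. Their members had fold enrichments of 13.2 and 8.78. At Gm30184 the ETS and RUNX cores overlap in a single run of capitals.

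The ETS core stood in 31 of 80 lncRNA windows with a member summit (38.8%, 28.8 to 49.7%), in 97 of 297 with a shared summit (32.7%, 27.6 to 38.2%) and in 14.8% of all 11311 lncRNA windows. The RUNX core stood in 11.2%, 9.09% and 6.30%, and the NFAT core in 12.5%, 7.41% and 8.04%. For AP-1 the shares were 11.2%, 10.4% and 9.25%, for the E protein core 21.2%, 19.5% and 17.6%, and for T-box 8.75%, 5.72% and 4.57%. The TCF core was in 2 of the 80 windows (2.5%), in 5.72% and in 4.66%. For each core, the intervals of member and shared windows overlapped. The 80 windows belong to 72 lncRNA genes and the 297 to 283, and the intervals count windows of the same gene as separate. The member windows held a median of 5 CpG dinucleotides (quartiles 3 and 10) and 51.5% G and C, against 8 (4 and 16) and 54.3% in the shared windows and 4 and 48.3% over all lncRNA windows.

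The summits of 2 members lay in the hairpin of a microRNA gene. The first member spans 110277700 to 110279072 on chromosome 12, at 1122 bp from Dio3, the deiodinase gene of an imprinted domain, and covers Mir1247, whose hairpin is at 110278048 to 110278129 on the minus strand. It had a fold enrichment of 4.82 and 72 reads. The second, at 21896965 to 21897246 on chromosome 13, covers part of the Mir1983 hairpin, 48024 bp from Zfp184, and had 4.16-fold and 62 reads. The mature products are given with the seed, bases 2 to 8, in capitals.
mmu-miR-1247-5p: aCCCGUCCcguucguccccgga
mmu-miR-1247-3p: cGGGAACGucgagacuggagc
mmu-miR-1983: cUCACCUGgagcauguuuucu

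In the window of 1 to 100 kb, 33.1% of control peaks were control-only, with no overlapping treatment peak (32.6 to 33.7%). The background over all control peaks of chromosomes 1 to 19 was 29.3%. The share was 28.4% for peaks in gene bodies and 37.3% (35.9 to 38.8%) for peaks beyond 100 kb. It was lowest, 13.9% (13.0 to 14.8%, 779 of 5624), for peaks between genes at most 1 kb from a span. By distance class it was 32.3% (31.0 to 33.5%) at 1 to 5 kb, 31.0% (29.7 to 32.3%) at 5 to 10 kb, 32.7% (31.6 to 33.8%) at 10 to 25 kb, 34.1% (32.8 to 35.5%) at 25 to 50 kb and 36.8% (35.2 to 38.3%) at 50 to 100 kb. The share was thus highest in the farthest class, whose interval lies above those of the 3 nearest classes. Overlap with treatment is part of the rule, so these shares describe the lists, and the intervals cover counting error only. They also depend on the longer control list: with it reduced to its 63351 peaks of lowest p, as many as treatment had, 3889 members and a share of 20.3% were left, and 18.3, 19.1, 19.6, 21.5 and 24.3% in the classes from near to far.

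The classes hold 1804 members at 1 to 5 kb, 1434 at 5 to 10 kb, 2335 at 10 to 25 kb, 1640 at 25 to 50 kb and 1322 at 50 to 100 kb. The median distance of a member to the nearest gene was 15216 bp, with quartiles of 5944 and 34892 bp, against 13542 bp for shared peaks. Counted per Mb of sequence in each class, in gaps flanked by a gene on both sides, members were densest close to genes. There were 17.0 members per Mb at 1 to 5 kb, 14.8, 12.9 and 9.92 in the next classes, and 7.21 at 50 to 100 kb. The density of shared peaks fell from 35.7 to 12.4 per Mb over the same classes.

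**Figure D1:**
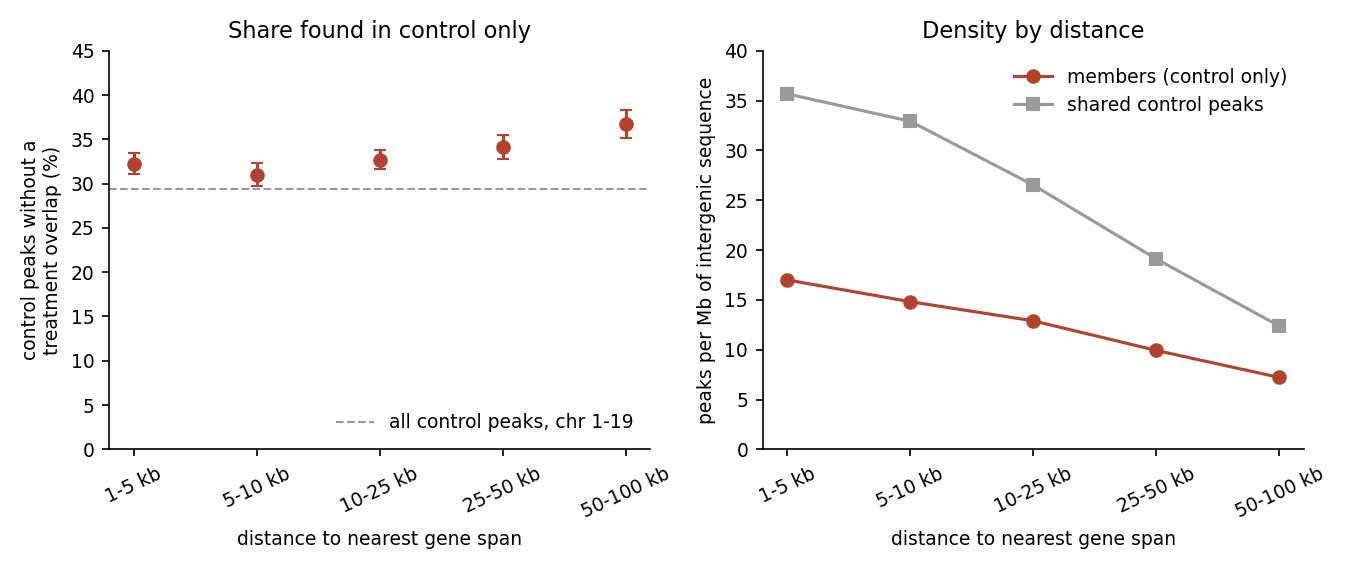
Left, percentage of control peaks without an overlapping treatment peak by distance to the nearest protein-coding gene span, with 95% Wilson intervals and the background of all control peaks (29.3%, dashed). Right, members and shared control peaks per Mb of intergenic sequence in each distance class. The share is highest at 50 to 100 kb (36.8%), while the density of members falls from 17.0 to 7.21 per Mb.

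The members were weaker peaks than the shared ones. Their median fold enrichment was 4.62 (quartiles 3.34 and 6.73), against 10.2 (6.29 and 15.3) for shared peaks of the same place. The median summit coverage was 89 reads against 286, and the median width 294 bp against 578 bp. Of the members, 49.4% lay in the lowest quartile of fold enrichment over all control peaks, and 219 (2.57%) in the highest. A width of 1000 bp or more was reached by 57 members (0.668%) and by 11.9% of shared peaks, and of 2000 bp by 0 and 59. These strength values come from the control library alone and their part in the overlap was not tested.

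The summit coverage of members in control was set beside that of treatment peaks. The lowest summit of any control peak had 29 reads, so nearly every control peak passes the lowest treatment value. The lowest summit coverage of a treatment peak in the same window was 31 reads and the 5th percentile 43 reads, which 90.8% of members exceeded in control. The lower quartile of treatment peaks, 81 reads, was exceeded by 55.1% of members, and the median, 155 reads, by 20.7%. Over all peaks of chromosomes 1 to 19 the median summit coverage was 221 reads in control and 190 in treatment. The caller's lowest background was 14.2 reads in control and 15.05 in treatment, and total reads were not at hand. Whether a member would have been called in treatment was not tested.

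Members close to genes had lower fold enrichments. The median was 3.74 at 1 to 5 kb, 4.71 at 5 to 10 kb, 4.82 at 10 to 25 kb, 4.99 at 25 to 50 kb and 5.15 at 50 to 100 kb. Summit coverage did not follow, with medians of 93, 90.5, 86, 88 and 89 reads. The median local background was 16.3 reads at 1 to 5 kb and 14.2, the caller's lowest, in every farther class. Of members at 1 to 5 kb, 41.9% sat at the caller's lowest background, against 73.6% at 50 to 100 kb. Fold therefore ranks near and far members differently from coverage, and both are given.

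At equal fold the farthest class had the highest control-only share in the 3 upper quartile classes of fold, though not in the lowest, where it had 63.7% against 67.4% at 10 to 25 kb. Among control peaks with a fold of 4.60 to 8.18, 53.9% (50.8 to 56.9%) were control-only at 50 to 100 kb, 41.5% (38.8 to 44.3%) at 5 to 10 kb and 29.3% (27.1 to 31.6%) at 1 to 5 kb. Between 8.18 and 13.8 the values were 22.8% (20.2 to 25.7%), 15.1% (13.3 to 17.2%) and 11.2% (9.56 to 13.1%). At equal coverage, a split made after the data were seen, the order differed. At 101 to 221 reads 40.6% (37.7 to 43.6%) were control-only at 50 to 100 kb and 36.4% (33.9 to 38.9%) at 5 to 10 kb. At 221 to 529 reads the highest share was instead at 1 to 5 kb, with 16.9% (15.2 to 18.8%) against 11.2% (9.31 to 13.4%) at 50 to 100 kb. Weighted to the same mix of coverage, the classes from near to far had 33.8%, 31.6%, 32.6%, 33.4% and 34.2%, and the difference between near and far classes became smaller.

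**Figure D2:**
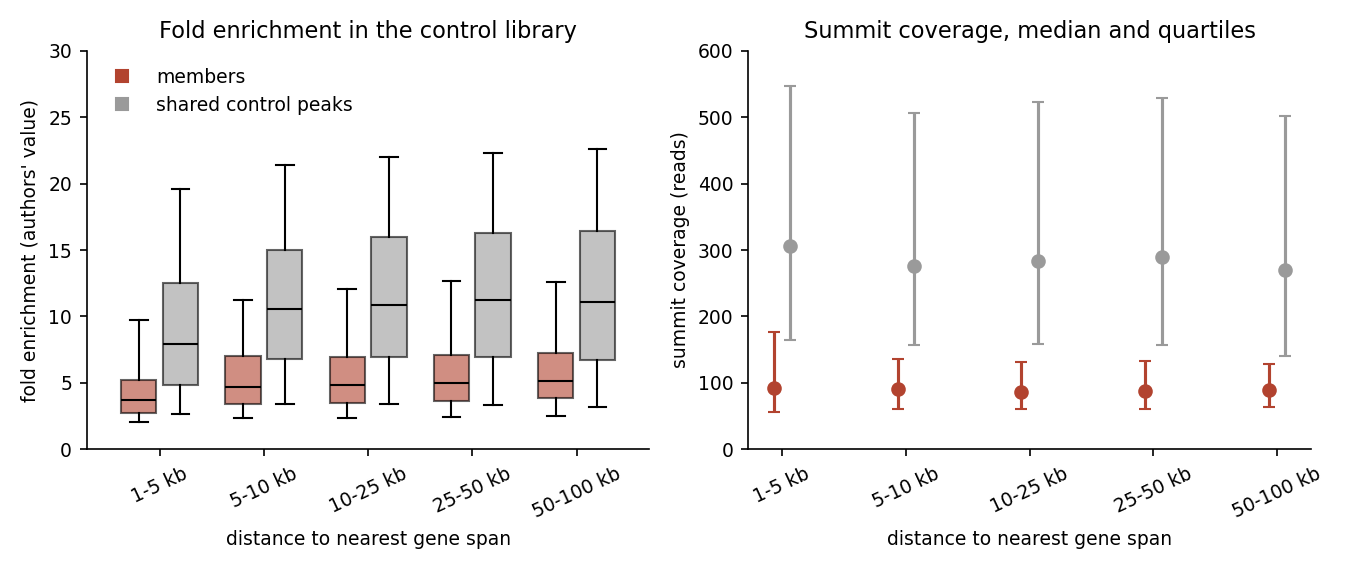
Left, fold enrichment (the authors' value) of members and shared control peaks by distance class, as medians, quartiles and 5th to 95th percentiles. Right, summit coverage in reads, as medians with quartiles. Members lie below shared peaks in every class (median fold 4.62 against 10.2 over all classes), and their fold, but not their coverage, is lowest at 1 to 5 kb.

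Most members lay within 10 kb of a treatment peak. The nearest treatment peak was at a median of 6360 bp (quartiles 2434 and 14802 bp). It was within 1 kb for 896 members (10.5%), at 1 to 10 kb for 4620 (54.1%), at 10 to 50 kb for 2527 (29.6%) and farther for 492 (5.76%). Another member lay within 10 kb of 2973 members (34.8%), and a shared control peak within 10 kb of 5277 (61.8%). The summits of 17.1% of members (16.4 to 17.96%) lay inside the span of an lncRNA gene, against 18.3% (17.8 to 18.9%) of shared peaks.

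The members were spread over the genome. They lay in 4575 of the 7704 gaps between genes that held a control peak in the window, and 919 gaps had 3 or more, with 3817 members in all. Of 3307 gaps with 3 or more control peaks, every one was a member in 75 and none in 617. The most members in a gap of the first kind, 7 of 7 control peaks, lay between Zc3h15 and Itgav, an integrin chain of fibronectin and vitronectin receptors, with 0 treatment peaks. Between Ffar2 and Ffar3, receptors for short-chain fatty acids, all 6 control peaks were members. By chromosome the control-only share ran from 29.6% on 3 and 10 to 36.3% on 13.

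Counted at the nearest gene, 5061 of 20665 protein-coding genes had at least 1 member, 3077 of them a single one, and 164 had 5 or more. The gene with the most members was Hrh1, the histamine H1 receptor, with 15 of 28 control peaks and 13 treatment peaks. Slc45a1, a sugar transporter, had 11 of 16 and 5 treatment peaks, and Lyzl1, a lysozyme-like gene, 10 of 17 and 9. Genes with 9 members were Atg7, an autophagy enzyme (of 26), Katnal1, a katanin subunit (of 23), Nrp1, a semaphorin and VEGF coreceptor (of 23), Irf8, an interferon regulatory factor of myeloid and B cells (of 21), Anxa3 (of 15) and Foxf1, a mesenchymal forkhead factor (of 11).

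The genes with 8 members were Arl4c (of 25), Prex1, a Rac exchange factor (of 23), Sik1, a kinase induced by cAMP (of 18), Irs2, an adaptor of insulin and IL-4 receptors (of 15), Gpbp1 (of 13) and Intu, a planar polarity gene (of 9). Those with 7 that led by number of control peaks were Thy1, the T cell surface protein Thy-1 (of 21), Kdr, a VEGF receptor (of 15), Nabp1 (of 15), Ubl3 (of 15) and Itgb1, the beta 1 integrin chain (of 14). A count follows the length of window and the number of peaks a gene has. Intu had 8 of 9 with 100 kb of window, while Arl4c had 8 of 25 with 184 kb. As a share of their peaks, Intu (88.9%) and Foxf1 (81.8%) were the highest of the 20 and Arl4c (32%) the lowest. In the control list reduced to the length of the treatment list, Hrh1 had 1 member, Atg7 0, Nrp1 2 and Slc45a1 4, while Lyzl1 had 8, Irf8 7 and Intu 6. With the spans of all annotated genes in place of protein-coding genes, Hrh1 had 15 and Atg7 9, but Irf8 1 and Foxf1, Prex1, Sik1, Irs2, Gpbp1 and Intu 0.

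**Figure D3:**
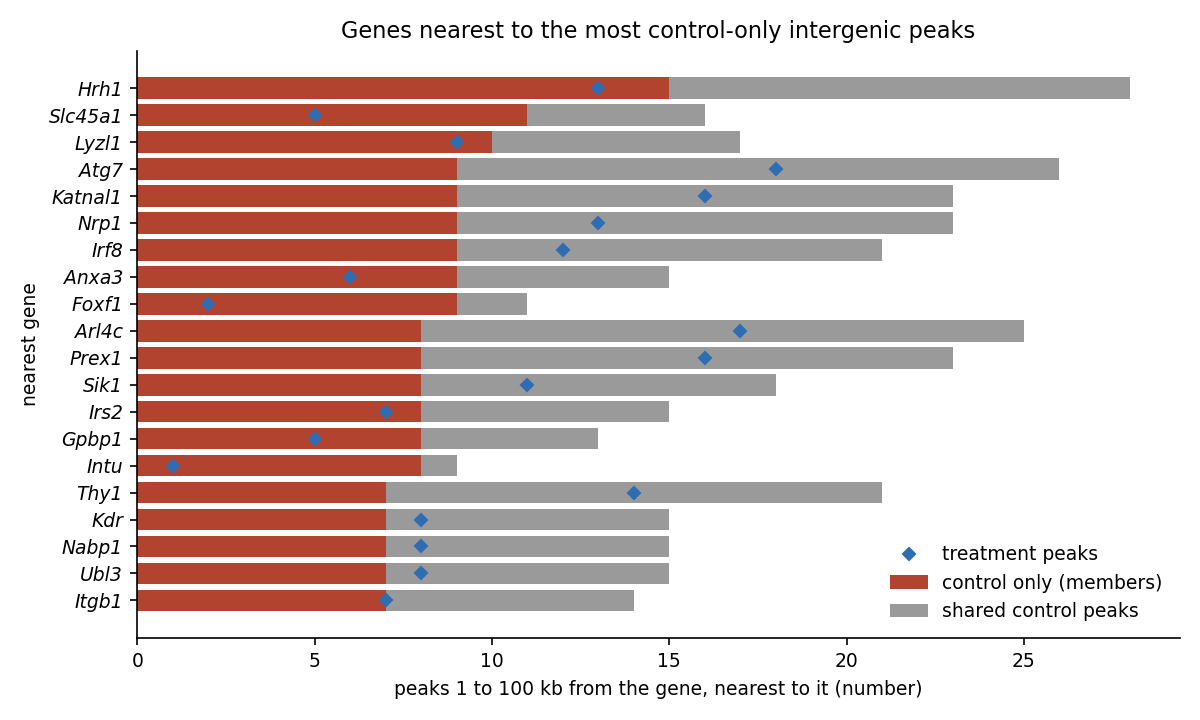
The 20 protein-coding genes nearest to the most members. Bars give control peaks 1 to 100 kb away for which the gene is the nearest, split into control-only members and shared peaks, and diamonds give treatment peaks of the same window. Hrh1 leads with 15 of 28, and Intu has 8 of 9 with 1 treatment peak.

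Peaks between Hrh1 and Atg7 (chromosome 6, 114483299 to 114643126) stood at even distances. The gap held 54 control peaks, 24 of them members, and 31 treatment peaks. Neighbouring control summits were a median of 2446 bp apart (quartiles 2367 and 2524), and 43 of 53 spacings were between 2.0 and 2.7 kb, against 6.81% of 18055 spacings over all gaps. The members there had a low median fold of 2.68, at most 4.26, and a local background of 18.9 to 40.8 reads, in no case the caller's lowest. No control peak in the gap reached a fold of 10. Gaps next in rank were unlike it: between Irf8 and Foxf1 28 control peaks, 17 of them members, had spacings with quartiles of 2075 and 10174 bp and a member fold of up to 13.9. Between Slc45a1 and Errfi1, a feedback inhibitor of the EGF receptor, 16 of 24 were members, between Nrp1 and Itgb1 12 of 31, and between Ubl3 and Katnal1 11 of 26, with at most 4 spacings in that range in any of the 3 gaps. What sets the even spacing was not tested.

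The 15 members of highest fold enrichment lay 7842 to 157638 bp from any treatment peak. The first, at 39.8-fold and 602 reads, was narrow (183 bp, chromosome 10, 11492078 to 11492260), 32487 bp from Epm2a, a glycogen phosphatase, and 41896 bp from any treatment peak. The members at Ilvbl and Wnt2, the latter a secreted Wnt ligand, had 28.4-fold each, at 18466 and 12590 bp. Next came Zfp41 (25.01), Trat1 (24.98), Lyzl1 (24.97), Ehd3 (23.9), Plpp3 (23.3), Rfc3 (23.0), Zbtb41 (23.0), Slc17a6 (22.6), Basp1 (22.5), Psg16 (22.5), Kcnj6 (22.3) and Neurog1 (21.7). Trat1 encodes an adaptor of the T cell receptor complex, and its member (chromosome 16, 48716246 to 48716817) had 415 reads at 14236 bp from the gene.

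Among the 3 highest members of each class, Psg16 (22.5), Moxd1 (20.9) and Spatc1l (20.02) led at 1 to 5 kb and Zfp41 (25.01), Wdr7 (21.4) and Gm52241 (20.9) at 5 to 10 kb. Ilvbl, Wnt2 and Trat1 led at 10 to 25 kb. Epm2a (39.8), Basp1 (22.5) and Nfatc2 (21.4), a calcium-regulated factor of T cell activation, led at 25 to 50 kb, and Lyzl1, Plpp3 and Rfc3 at 50 to 100 kb. The member near Nfatc2 (chromosome 2, 168429509 to 168430163) had 467 reads, 46624 bp from the gene and 15216 bp from a treatment peak. At the limits of the window, members 1001 bp from Bves and Gab1 had folds of 8.05 and 5.87, and control-only peaks 1000 bp from Nxn and Nr1h4, just outside, 3.98 and 3.63. Members at 99974 bp from Klf14 and 99933 bp from Rasgrp1 had 4.03 and 2.10, and the peaks just beyond 100 kb, 100059 bp from Fasl and 100235 bp from Cryba4, 3.70 and 2.51.

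Genes of T cell function were often the nearest gene of a member. In the 6 lists of such genes 88 of 127 genes found (69.3%) had a member, against 24.5% of all protein-coding genes. They also had many peaks, 789 in the window, and 202 of these were control-only, 25.6% (22.7 to 28.8%) against 33.1% over all genes. Weighted to the same mix of summit coverage, a choice made after the data were seen, the value was 30.9%. With lists of equal length it was 16.1%, against 20.3% over all genes. By coverage class, a split also made after the data were seen, the order differed. At 29 to 101 reads the T cell lists had 61.3% (53.7 to 68.5%), against 70.7% over all genes. At 101 to 221 reads they had 31.4% against 37.7%, and above 529 reads 0.939% against 1.44%, with overlapping intervals. At 221 to 529 reads they instead had more, 18.9% (14.4 to 24.4%) against 11.3% (10.6 to 12.02%). T cell genes thus had members at more of their number. A smaller share of their peaks were members with all coverage classes together, but not in each class. Single genes depend on both choices: of 53 T cell genes with 2 or more members, 6 had none with lists of equal length and 19 had none with the spans of all genes.

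The share was 22.8% for naive and memory genes (42 of 184 peaks), 23.6% for T cell receptor and identity genes (33 of 140), 25.4% for activation and costimulation (35 of 138), 27.0% for migration and residency (27 of 100), 28.3% for effector genes (39 of 138) and 29.2% for inhibitory receptors and exhaustion (26 of 89). It was 41.5% for cell cycle genes (17 of 41), 39.7% for B cell, myeloid and dendritic markers (23 of 58) and 44.0% for genes not expected in T cells (22 of 50). The last 3 intervals, such as 31.2 to 57.7% for genes not expected in T cells, include the 33.1% of all genes. Those of naive and memory genes (17.4 to 29.4%) and T cell receptor genes (17.3 to 31.2%) lie below it. With lists of equal length the 3 were at 21.4% for cell cycle genes, 31.9% for B cell, myeloid and dendritic markers and 21.4% for genes not expected in T cells. The difference between any pair of lists was not tested.

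**Figure D4:**
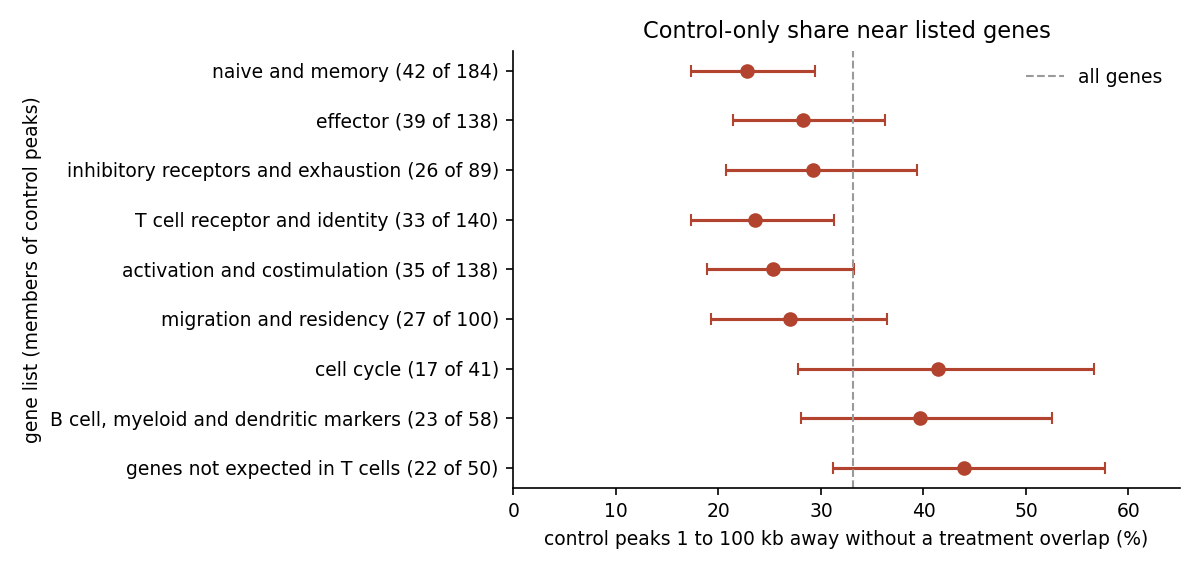
Percentage of control peaks 1 to 100 kb from listed genes that had no treatment overlap, with 95% Wilson intervals and the value of all genes (33.1%, dashed). The 6 lists of T cell function lie between 22.8 and 29.2%, and the 3 others between 39.7 and 44.0%.

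Of the effector genes, Prdm1 had the most members. Prdm1 encodes Blimp-1, the repressor that drives terminal effector differentiation. Of its 12 control peaks 7 were members, and treatment had 5. On the upstream side, members lay 36679 bp (chromosome 10, 44564928 to 44565435, fold 14.3, 216 reads), 80826 bp (fold 7.66) and 87217 bp (fold 3.70) from the gene, with no treatment peak within 25299, 69596 and 76040 bp. A member 4108 bp upstream had a fold of 6.57, and 3 on the downstream side, at 2371, 17213 and 20680 bp, had 10.8, 2.38 and 4.75. The 5 other control peaks, with folds of 6.33 to 18.8, were also found in treatment. With lists of equal length Prdm1 had 4 members, and with the spans of all genes 2.

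Zeb2 encodes a zinc finger repressor of effector and terminal cells. Its 7 control peaks included 4 members, all upstream and next to each other, with folds of 10.5 (21634 bp), 4.14 (23659 bp), 12.8 (25909 bp) and 14.5 (55630 bp, chromosome 2, 45172569 to 45173376, 218 reads). Treatment had 3 peaks, all on the other side of the gene, and none within 21485 bp of a member. The 3 shared peaks there had 334, 279 and 688 reads in control and 152, 180 and 395 in treatment. Zeb2 had 3 members with lists of equal length and 0 with the spans of all genes. Id2, an inhibitor of E proteins needed by effector cells, had 5 members of 14 peaks, all upstream at 45835 to 91295 bp, the highest with a fold of 13.1 at 47586 bp. Ifng, the interferon gamma gene, had 5 of 22, with folds of 10.5 at 71126 bp and 8.91 at 3134 bp downstream, and treatment had 18 peaks there, of which 1 had no control overlap.

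**Figure D5:**
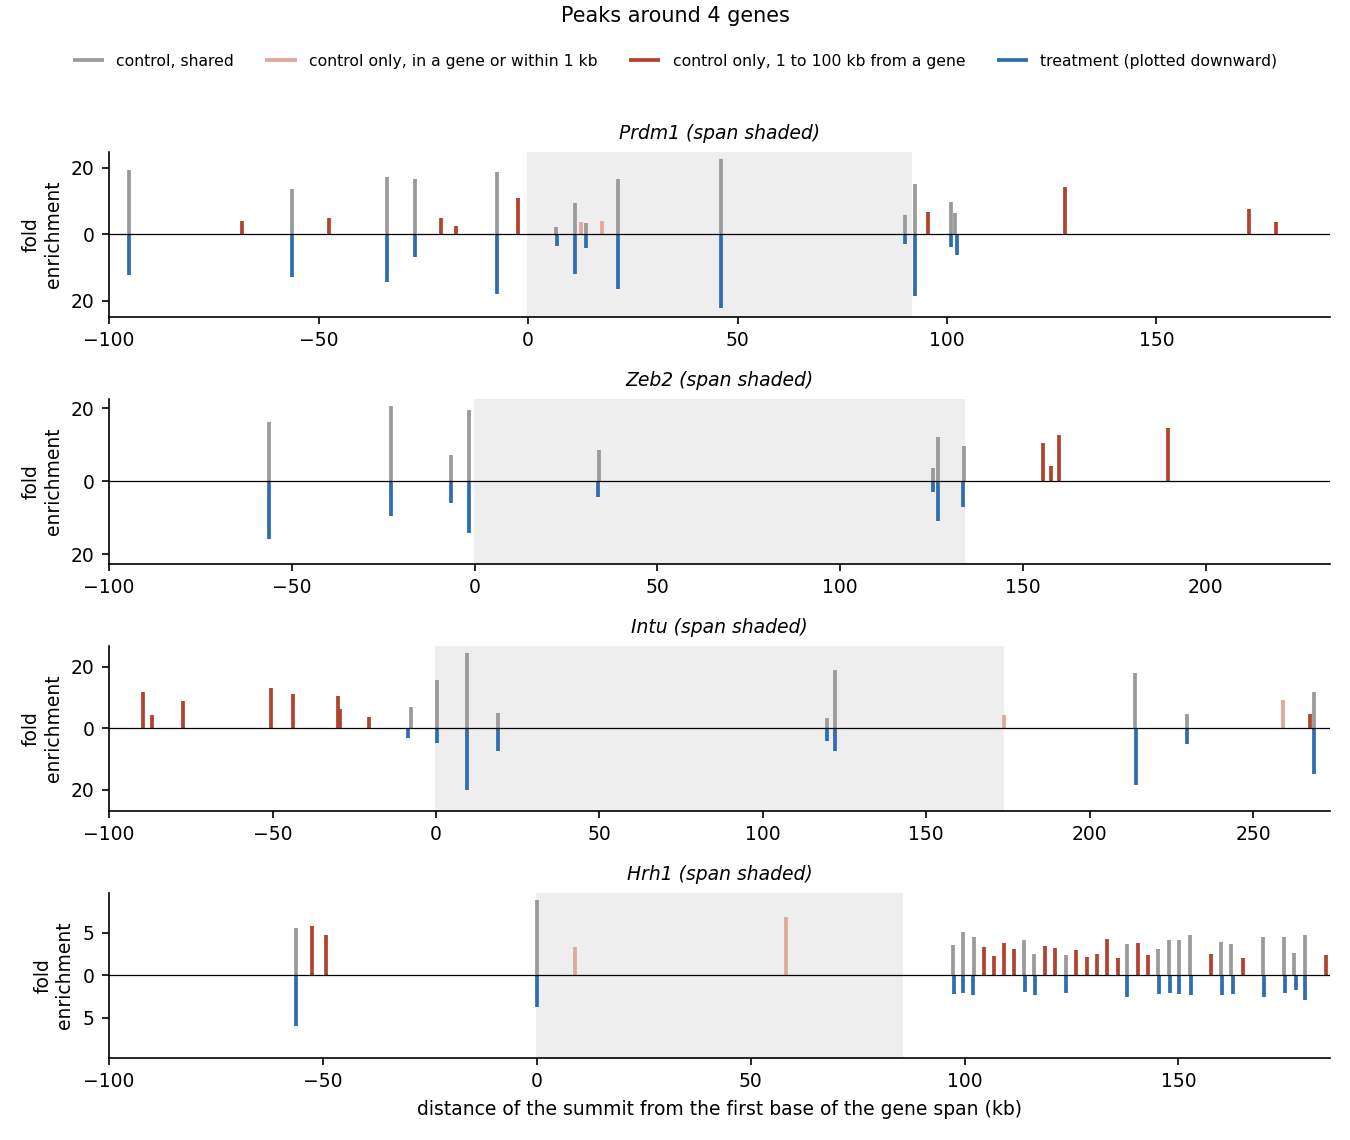
Peaks around Prdm1, Zeb2, Intu and Hrh1, by distance of the summit from the first base of the gene span (kb, span shaded), with fold enrichment in control upward and in treatment downward. Red lines are members, including those nearest to another gene, pale red other control-only peaks and grey shared control peaks. The 4 red lines after Zeb2 and the 8 before Intu (folds up to 14.5 and 13.2) stand in stretches without treatment peaks. The low lines after Hrh1 are evenly spaced.

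Other effector genes had fewer members. Ccl3, a chemokine of activated T cells, had 4 members of 6 peaks, all downstream within 18905 bp, with folds of 2.69 to 8.92. Prf1, the pore protein perforin, had 2 of 3, with folds of 7.33 and 3.62, Klrg1, a receptor of terminal effectors, 2 of 4 with 8.05 and 4.15, and Eomes 2 of 16 with 7.13 and 2.51. Fasl, a death ligand, had 3 of 19 and Bhlhe40 2 of 8, none above 5.09-fold. Gzmb with 8 control peaks in the window, Ccl5 with 5 and Il2 with 4 had no member.

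Naive and memory genes had few members among many peaks. S1pr1, the receptor for exit from lymph nodes, had 6 members of 20 peaks, the highest with a fold of 11.9 and 180 reads at 25900 bp. Lef1, a TCF family factor, had 2 of 12 with folds of 10.4 and 7.85, and Tcf7, which encodes TCF1, 2 of 10 with 7.30 and 3.73, both upstream. Cd28 had 3 of 12, among them a peak of 14.5-fold at 48168 bp, 1021 bp from a treatment peak. Dapl1 had 4 of 16, Bach2 3 of 10, Foxo1 3 of 19, Myb 3 of 13, Satb1 2 of 14, Klf2 2 of 8, Id3 2 of 8 and Ly6c2 2 of 5. Among these 8 genes only Foxo1 (8.51 and 5.08) and Dapl1 (6.01) had a member with a fold above 5. Bcl2 had no member among 8 peaks.

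Among T cell receptor and identity genes, Runx3, Runx1 and Gata3 had the most members. Such counts follow the number of peaks a gene has, and the whole list had 33 of 140 (23.6%), against 33.1% over all genes. Runx3, the factor of the CD8 lineage, had 6 of 19, of which 4 upstream at 48633 to 81196 bp, with folds up to 7.46. Runx1 had 4 of 6, at most 6.86, Gata3 4 of 9, at most 5.15, and Bcl11b 3 of 11, led by 10.1 at 43237 bp upstream. Lcp2, the adaptor SLP-76, had 3 of 12 with a highest fold of 11.2, Ets1 2 of 10 with 8.22, Cd2 2 of 12 with 6.47, and Trat1 2 of 3. Cd8a and Cd8b1 each had 1 member, of 7 and 9 peaks, and Cd3e had none of 5.

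Among activation genes, Jun, a subunit of AP-1, had the most members. It had 6 of 11, of which 5 upstream, the highest with a fold of 11.1 and 167 reads at 37941 bp, and treatment had 5 peaks. With lists of equal length Jun had 2 members, and with the spans of all genes 0. Fos had 4 of 13, at most 3.43, and Fosl2 2 of 6. Myc had 4 of 11, at most 4.69, and 0 under either alternative. Dusp5, a phosphatase of ERK, had 4 of 16, at most 5.73. Nfkb1 had 3 of 7 with a highest fold of 8.05, and Il2ra 2 of 8, Cd69 2 of 13 and Tnfrsf9 2 of 4 had none above 5.36.

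Among migration genes, Itgb1 had 7 of 14 members, with folds of 10.2 and 10.4 at 72857 and 62722 bp upstream, and Xcl1, a chemokine for cross-presenting dendritic cells, 6 of 17, all upstream, with folds of 3.63 to 7.20. Rgs1, a regulator of chemokine signalling in resident cells, had 4 of 10, with 17.0-fold and 278 reads at 51775 bp (chromosome 1, 144300742 to 144301307) and 11.4-fold at 13629 bp. Ccr2 had 3 of 7 and Itga1 2 of 5, at most 5.87. Cxcr4 had no member among 10 peaks.

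Genes of inhibitory receptors and exhaustion with 2 or more members had none above a fold of 6.47. Nt5e, which encodes CD73, had 3 of 5, at most 6.40, Ikzf2 3 of 8, at most 6.47, Tigit 2 of 5, at most 5.41, Tox2 2 of 3, at most 5.34, Il10 2 of 7, at most 5.23, Nr4a3 2 of 7, at most 4.75, Nfatc1 2 of 9, at most 4.65, and Ctla4 2 of 14, at most 4.42. Genes with a single member were also looked at after their values were seen. Havcr2, which encodes TIM-3, had its only peak of the window as a member (fold 13.99, 211 reads, 7179 bp downstream), and Irf4 had 1 of 5 (fold 13.8, 239 reads, 9075 bp). The nearest treatment peak was 15617 bp from the Havcr2 member and 1334 bp from the Irf4 member. Pdcd1, which encodes PD-1, had no member among 6 peaks.

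Genes of other cell types had members too. Of the 23 near B cell, myeloid and dendritic markers 9 were at Irf8, with folds of 3.51 to 6.996. Mitf, a melanocyte factor, had 2 of 5, the higher at 14.5-fold and 219 reads, 73195 bp away and 72596 bp from a treatment peak. Sox10, Olig2, Col1a1 and Sox2 each had 2 peaks in the window and Pax6 had 3, all members, with 0 treatment peaks. Most of these were weak. Those of Sox2, Olig2 and Pax6 had folds of 2.15 to 4.11 and 38 to 75 reads, where the lowest control summit had 29. Col1a1 had folds of 4.09 and 4.16, and Sox10 11.4 and 4.49. Other genes of that list went the other way: Pecam1 with 4 peaks, Snap25, Cyp7a1 and Pdgfra with 2 each and Gfap with 1 had no member, and Cdh5 had 1 of 8. Among cell cycle genes Ccnd2, cyclin D2, had 5 of 12, at most 8.45, Rrm2 3 of 7, and Top2a, Cdk1 and Cdk6 had 2 each. No cause for any of these differences was tested, and with 1 library on each side a difference between the libraries cannot be told apart from one between the conditions.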

How the data were processed

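ATAC-seq of mouse CD8+ T cells was deposited as 1 peak list per library. The submitters' processing notes name cutadapt 2.5, Bowtie2 2.3, Picard 2.20, MACS2 and the build mm10, and their settings are not given in the sources used here. Each deposited peak carries the authors' score, fold enrichment (a ratio), −log10 p-value and −log10 q-value, with a lowest −log10 q of 2.00 in each list. From fold and p, summit coverage in reads was recovered as a whole number, with a tolerance of 0.001 in −log10 p, for 100% of peaks. On 20000 control peaks simulated with the same formula it was recovered in 100%. That checks the arithmetic only, and not whether the deposited values follow the formula. Gene spans are those of RefSeq GRCm38.p6. Strand was found for the nearest gene of 77.9% of members, below the 80% needed, so the planned upstream share is void and a side is given only for single members. Without a genome, cores were searched in lncRNA promoter windows in place of windows around all summits. Percentages carry 95% Wilson intervals. Members and gene lists were chosen with earlier results of these data known. The named genes are the 20 nearest to the most members, the 15 highest members by fold, the 3 highest of each class, T cell genes with 2 or more members, the 5 gaps with the most members and the members at the window's limits. Genes of the other lists, genes without members and gaps without shared peaks were picked after their values were seen. A gene that the rule would name is not reported here. The alternatives were other overlap rules, stricter q, equal list lengths, spans of all genes, a shorter window and, added after seeing the data, equal coverage. Python 3.11.15, pandas 2.3.3 and scipy 1.17.1 were used.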

Additional observations from a re-analysis of the deposited data

How the results depend on the processing

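The share of control peaks 1 to 100 kb from a gene that were control-only, 33.1%, was 39.0% when 50% reciprocal overlap counted as shared, 37.0% with summits within 150 bp, 29.7% with no treatment interval within 1 kb, 20.3% with lists of equal length, 34.8% with the spans of all genes and 32.5% in a window of 1 to 50 kb. With lists of equal length there were 3889 members. The median fold of members, 4.62, was 4.86 with reciprocal overlap, 4.78 with the 1 kb rule, 4.71 and 5.06 at −log10 q of at least 5 and 10, 6.996 with equal length and 4.49 in the shorter window. The median distance, 15216 bp, was 15866 bp with the 1 kb rule, 16147 bp with equal length, 8850 bp with all spans and 11636 bp in the shorter window.

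By class from near to far, the shares were 27.2, 27.3, 29.6, 31.3 and 34.5% with the 1 kb rule and 18.3, 19.1, 19.6, 21.5 and 24.3% with equal length. With all spans they were 33.3, 36.0, 37.6 and 40.2% from 5 to 10 kb on, and weighted to one mix of coverage 33.8% at 1 to 5 kb and 34.2% at 50 to 100 kb. Under each of these the highest share was at 50 to 100 kb. Genes with 5 or more members numbered 164, 14 with equal length and 48 with all spans. The share near listed genes, 28.1%, was 17.5% with equal length and 32.3% weighted by coverage, and for the 6 T cell lists, 25.6%, it was 16.1% and 30.9%. Of 72 named genes, 64 had fewer members with equal length and 62 with all spans, and the rest as many. That direction was fixed in advance. The first setting only shortens the control list and the second only adds spans, so neither can give a gene more members. The causes of the other changes were not tested. No paired analysis was possible because each group has 1 library and no test was made, and for the same reason no replicate could be left out. Coverage limits what is said of weak members, since 57.6% of them lay in the lowest quartile class of coverage.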

Other observations

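The sex chromosomes lie outside the set described above. On chromosome X, 173 of 606 control peaks placed 1 to 100 kb from a gene had no overlapping treatment peak (28.5%, 95% Wilson interval 25.1 to 32.3%), with a median fold enrichment of 4.55. On chromosome Y 8 of 35 did (22.9%, 12.1 to 39.0%), with a median fold of 2.93.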
